A study of Mus musculus with 5 samples.

Results

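Expression of 10 genes for receptors of the SLAM family, their adaptors and receptors of nectin-type ligands was examined in natural killer (NK) cells of mouse spleen after CRISPR editing of Fli1. The genes were taken by symbol from a table of counts for 56691 Ensembl gene IDs: the SLAM receptors Cd244a, Slamf7, Ly9 and Slamf6, the adaptors Sh2d1a and Sh2d1b1, and the nectin-binding receptors Cd226, Tigit, Cd96 and Crtam. All 10 were found and all 10 were among the 30580 genes with enough counts to be tested. The 5 libraries comprised 3 labelled Fli1 KO, from cells given a CRISPR knockout of Fli1, an ETS-family transcription factor, and 2 labelled NTC, the other arm of that CRISPR design. Both groups were NK cells, and their RNA was enriched by probe capture. The sources used here do not state strain, age, sex, guide, time after editing or culture conditions, nor whether the libraries of a group came from separate animals. The p-values therefore measure only the spread between these libraries, which may be technical.

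SLAM receptors are paired with ligands that are mostly SLAM receptors themselves, so that blood cells engage one another through like molecules. CD244 binds CD48 and not itself. Tyrosine motifs in their tails recruit the small SH2-domain adaptors SAP, encoded by Sh2d1a, and EAT-2, encoded by Sh2d1b1, and in NK cells the adaptors turn these receptors towards activation. CD226, TIGIT and CD96 compete for shared ligands of the nectin family on tumour and infected cells, chiefly the poliovirus receptor PVR, with CD226 as the activating receptor and TIGIT as an inhibitory one, while CRTAM binds the nectin-like adhesion molecule CADM1.

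The libraries held 4718390 to 5643791 counts. Levels are given as CPM, counts per 1000000 of a library's TMM-scaled total, and 1 count was worth 0.173 to 0.209 CPM. NK markers were abundant, with a summed level of 9239 to 13670 CPM over 12 genes in Fli1 KO and of 9935 and 6727 CPM in NTC 1 and NTC 2, and all 12 lay over 3 times the background. The background is the density of counts on 1453 olfactory and vomeronasal receptor genes, scaled to exon length. Of 10 T-cell markers only Cd28 lay over 3 times background (87.4 to 90.1 CPM in Fli1 KO, 95.2 and 109 CPM in NTC), and the other 9 lay at 0.797 (Cd8b1) to 2.7 (Cd3d) times, with Cd3g at 2.65 and Cd3e at 1.19 times. The summed T-cell marker level was 168 to 175 CPM in Fli1 KO and 182 and 198 CPM in NTC. None of 8 B-cell markers and none of 5 erythroid and platelet markers lay over 3 times background. Of the myeloid and dendritic markers, Cd68 and Itgax did. Fli1 RNA itself overlapped between the groups (320 to 390 CPM in Fli1 KO, 279 and 322 CPM in NTC), and since an edited gene can still be transcribed, its count is no test of the labels on which each direction rests.

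The promoters show what DNA an ETS factor could meet at these genes. ETS factors bind around a GGAA core, which reads TTCC on the other strand. RefSeq windows on GRCm38.p6 were at hand for 6 of the 10 genes. The 250 bases before the start that RefSeq gives are printed 5′ to 3′ on the gene's own strand, with each core in capitals, for Cd244a, Slamf7 and Tigit, whose Fli1 KO libraries all lay above both NTC libraries, and for Cd96, whose groups overlapped. They lie at chr1:171558943-171559192 on the plus strand, and on the minus strand at chr1:171649000-171649249, chr16:43664185-43664434 and chr16:46120249-46120498.
Cd244a: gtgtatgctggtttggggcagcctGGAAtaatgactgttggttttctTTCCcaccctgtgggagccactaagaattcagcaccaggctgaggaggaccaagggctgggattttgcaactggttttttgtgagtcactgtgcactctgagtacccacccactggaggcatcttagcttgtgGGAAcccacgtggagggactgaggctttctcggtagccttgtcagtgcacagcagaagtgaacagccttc
Slamf7: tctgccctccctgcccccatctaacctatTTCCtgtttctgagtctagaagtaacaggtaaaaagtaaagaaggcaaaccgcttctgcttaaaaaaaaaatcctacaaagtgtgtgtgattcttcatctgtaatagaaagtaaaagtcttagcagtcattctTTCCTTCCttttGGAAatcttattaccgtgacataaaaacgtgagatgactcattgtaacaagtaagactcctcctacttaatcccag
Tigit: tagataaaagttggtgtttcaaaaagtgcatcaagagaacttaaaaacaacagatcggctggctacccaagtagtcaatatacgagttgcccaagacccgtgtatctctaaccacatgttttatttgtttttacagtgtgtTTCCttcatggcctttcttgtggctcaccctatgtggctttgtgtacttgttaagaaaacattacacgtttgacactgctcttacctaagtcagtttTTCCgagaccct
Cd96: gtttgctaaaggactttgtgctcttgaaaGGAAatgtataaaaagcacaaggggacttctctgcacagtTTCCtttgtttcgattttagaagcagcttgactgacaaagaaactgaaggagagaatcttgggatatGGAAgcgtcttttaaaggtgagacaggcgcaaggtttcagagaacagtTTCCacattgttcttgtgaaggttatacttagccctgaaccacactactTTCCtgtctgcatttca
The core, counted on both strands, occurred 3 times in the Cd244a window, 4 times in that of Slamf7, 2 times in that of Tigit and 5 times in that of Cd96. It occurred 5 times in the Sh2d1b1 window and 0 times in the Slamf6 window. Among all 32851 RefSeq promoter windows of this length 93.4% held it, with a median of 3 matches. The longer form CCGGAA, which contains the core, was in 0 of the 6 windows and in 12% of all windows. AGGAAG, which also contains the core, was in that of Slamf7 alone of the 6 and in 29.5% of all windows. For Tigit and Slamf6 the RefSeq start lies upstream of the gene model in the annotation used for counts and lengths, so their windows do not adjoin a start of that annotation. These matches are letters in a window, and binding was not measured.

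The genes were expressed at very different levels. Per kb of exon, Tigit was highest in NTC (56.7 CPM per kb), followed by Cd96 (51.8), Cd244a (39.9), Slamf7 (24.1), Ly9 (21.7), Sh2d1b1 (14.4), Cd226 (13.2), Crtam (7.31), Sh2d1a (6.06) and Slamf6 (1.68). The ranges over the 5 libraries overlapped between all neighbours in this order except Ly9 and Sh2d1b1, and Sh2d1a and Slamf6. In Fli1 KO, Cd244a (54.5 CPM per kb) lay above Cd96 (47.4), and Sh2d1a (7.88) above Crtam (5.58). The level of Slamf6, 1.07 times background, could not be told from background on this scale, and the other 9 genes lay at 4.0 to 44.5 times. The scale depends on which bases the probes cover. With coding length in place of exon length, an alternative chosen after seeing the data, Cd244a (36.7 times background) and Slamf7 (25.4 times) led. In proportion, Sh2d1a moved most, from 4.62 to 19.4 times. That put Sh2d1a above Sh2d1b1 (9.27 to 17.2 times) and Tigit (44.5 to 16.3 times). Cd96 went from 31.6 to 11 times, Ly9 from 15.3 to 7.22 times and Slamf6 from 1.07 to 2.82 times.

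**Figure D1:**
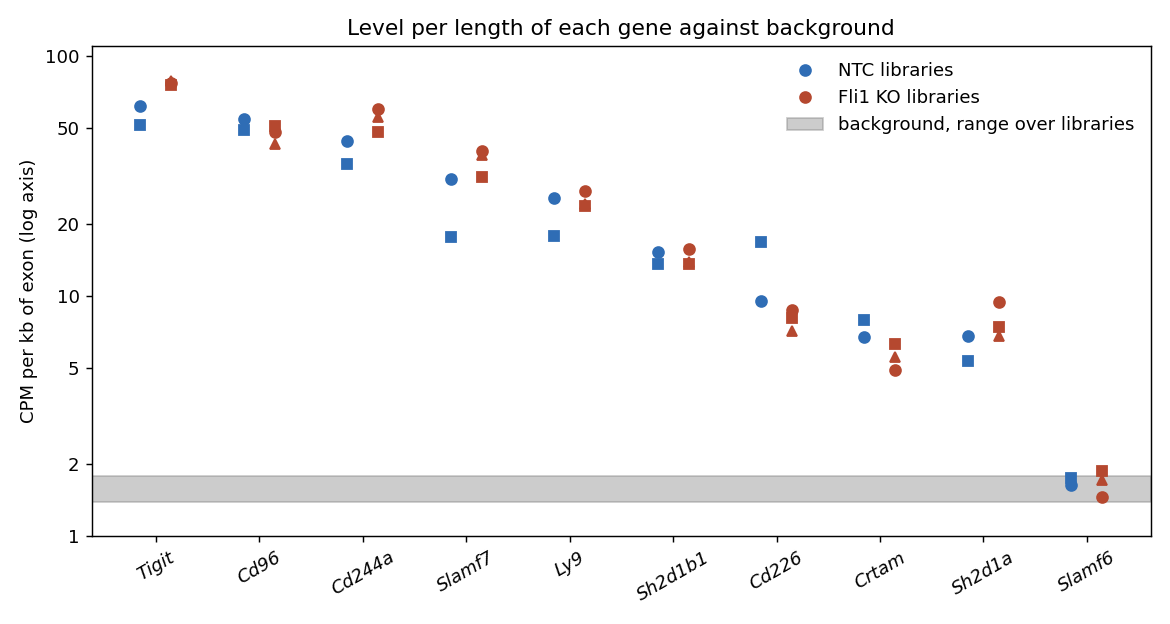
CPM per kb of exon on a log axis for each gene, ordered by the NTC mean, with NTC libraries in blue and Fli1 KO libraries in red (circle, square and triangle for replicates 1, 2 and 3). The grey band is the background per kb over the libraries, and only the points of Slamf6 lie at it.

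Compared between the groups, 0 of the 10 genes were called by edgeR's quasi-likelihood test at a Benjamini-Hochberg adjusted p under 0.05, against 0.546% of all genes tested (in Fli1 KO, 0.458% higher and 0.0883% lower) and 1.99% of those over 3 times background. DESeq2 and limma-voom also called 0 of the 10, against 0.589% and 0.569% of all genes. At an unadjusted p under 0.05 there were 6, against 8.94% of all genes and 18.2% of those over 3 times background. In the same 6 the Fli1 KO libraries did not overlap the NTC libraries, as in 25.6% of all genes tested and 34.0% of those over 3 times background. The 4 genes Cd244a, Slamf7, Sh2d1a and Tigit lay higher in Fli1 KO, as 11.9% of all genes did, and the 2 genes Cd226 and Crtam lower, as 13.7% did. With library size alone as the scaling, which moved the median of all genes by −0.13 on the log2 scale, Slamf7 and Sh2d1a overlapped and 4 genes did not. The median log2 fold change of the 10 genes was 0.10, beside −0.02 for all genes and 0.11 for those over 3 times background.

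**Figure D2:**
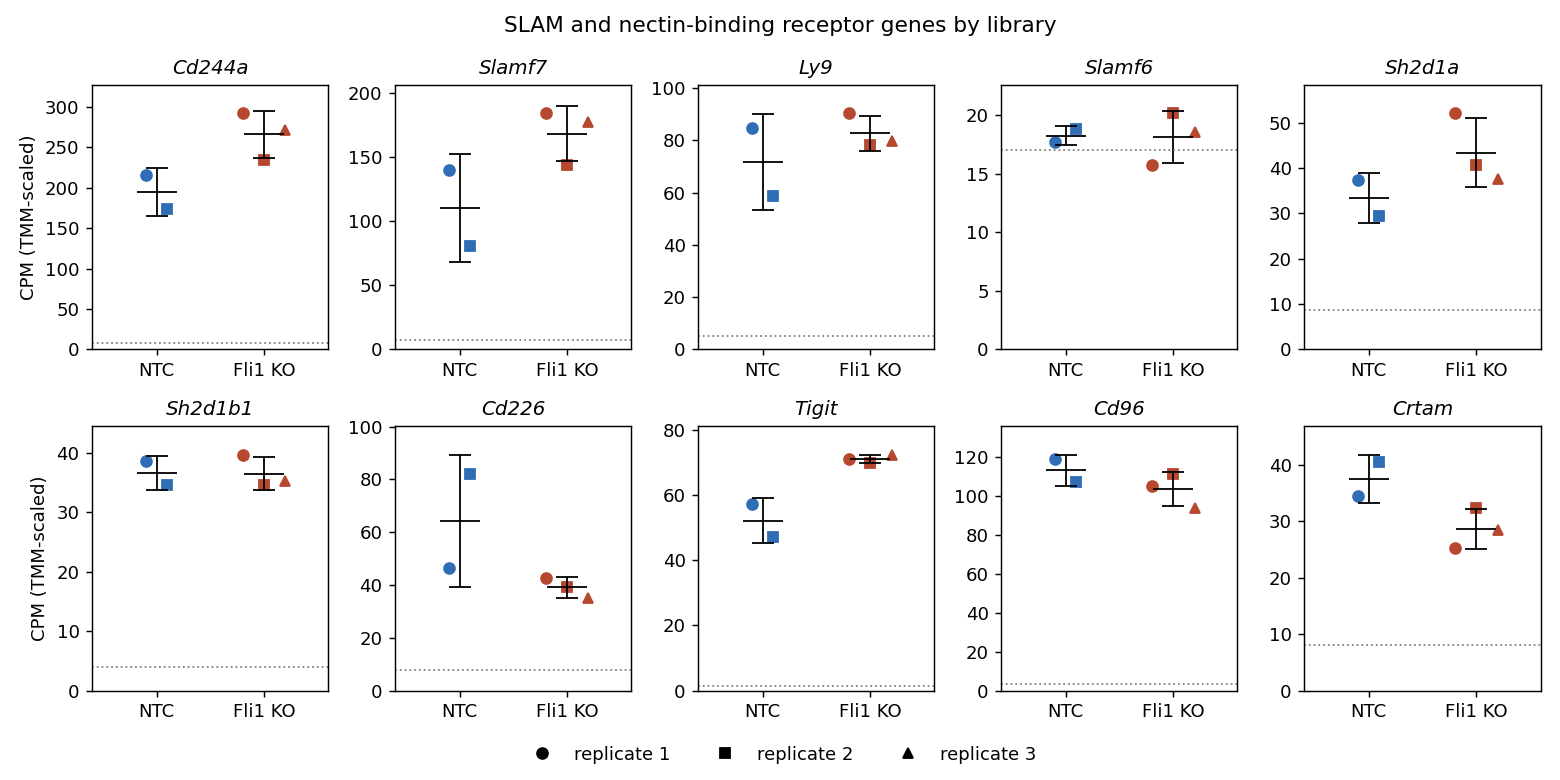
CPM of each gene in the 2 NTC libraries (blue) and 3 Fli1 KO libraries (red), with the mean and SD of each group in black and the background for the gene's exon length as a dotted line. Tigit shows the tightest Fli1 KO values (69.7 to 72.3 CPM), and in Cd226 and Slamf7 NTC 2 lies far from NTC 1.

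Among the SLAM receptors, Cd244a, which encodes the CD48 receptor 2B4 (ENSMUSG00000004709, GRCm38 chromosome 1, 171559193 to 171609746, plus strand), had 292, 234 and 271 CPM in Fli1 KO 1 to 3 and 216 and 173 CPM in NTC 1 and NTC 2. All 3 Fli1 KO libraries lay above both NTC libraries, and Fli1 KO 2 was the lowest of the 3. Fli1 KO averaged 266 ± 29.2 CPM (SD, n = 3) and NTC 195 ± 30.1 CPM (SD, n = 2). The difference in edgeR was 0.45 on the log2 scale (SE 0.15, 95% interval 0.15 to 0.75, adjusted p = 0.266).

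Slamf7, the gene of the self-binding receptor CRACC that signals through EAT-2 in NK cells (ENSMUSG00000038179, chromosome 1, 171632403 to 171653035, minus strand), had 184, 144 and 177 CPM in Fli1 KO and 140 and 80.6 CPM in NTC. The lowest Fli1 KO library and NTC 1 differed by less than their counting error (95% Poisson intervals 134 to 154 and 131 to 150 CPM, which cover counting error only), while NTC 2 (72.8 to 89.1 CPM) lay well below all others. Fli1 KO averaged 168 ± 21.7 CPM (SD, n = 3) and NTC 110 ± 42.0 CPM (SD, n = 2). The difference in edgeR was 0.61 on the log2 scale (SE 0.20, 95% interval 0.19 to 1.03, adjusted p = 0.305). It was 0.27 without NTC 2 and 1.08 without NTC 1. The antisense gene Gm37787 shares 423 bases (9.24%) of the Slamf7 exons, and whether strand was used in counting is not given.

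Ly9, whose product CD229 binds itself (ENSMUSG00000004707, chromosome 1, 171588624 to 171607410, minus strand), had 90.4, 78.3 and 79.6 CPM in Fli1 KO and 84.6 and 58.7 CPM in NTC. NTC 1 lay among the Fli1 KO libraries and NTC 2 below them, so the groups overlapped. The difference was 0.20 on the log2 scale (SE 0.15, adjusted p = 0.755 in edgeR), or −0.025 with NTC 2 left out and 0.51 with NTC 1 left out. The Ly9 gene lies wholly inside the span of Cd244a on the opposite strand, although the exons of the 2 genes share 0 bases.

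Slamf6, the gene of the self-binding receptor Ly108 (ENSMUSG00000015314, chromosome 1, 171917515 to 171953170, plus strand), had 15.7, 20.2 and 18.5 CPM in Fli1 KO and 17.7 and 18.8 CPM in NTC, against a background of 16.9 and 17.1 CPM for its exon length. The groups overlapped, with a log2 fold change of −0.0029 (95% interval −0.37 to 0.37, edgeR adjusted p = 0.999). At this level the value says little about Slamf6 RNA.

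The 2 adaptors showed different values. Sh2d1a, the gene of SAP (ENSMUSG00000005696, chromosome X, 42502453 to 42529330, plus strand), had 52.1, 40.7 and 37.5 CPM in Fli1 KO and 37.3 and 29.5 CPM in NTC. Fli1 KO 3 and NTC 1 were almost level, Fli1 KO 1 was the highest, and the log2 fold change was 0.37 (SE 0.17, 95% interval 0.029 to 0.72, edgeR adjusted p = 0.501). It was 0.23 without either Fli1 KO 1 or NTC 2 and 0.58 without NTC 1. Its exons share 1465 bases (26.6%) with Tenm1 on the opposite strand, and 25.6% of its 50-base stretches also occur in transcripts of other genes, so its count is less certain than the others.

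Sh2d1b1, the gene of EAT-2 (ENSMUSG00000102418, chromosome 1, 170277320 to 170286769, plus strand), had 39.7, 34.6 and 35.3 CPM in Fli1 KO and 38.7 and 34.7 CPM in NTC. The groups overlapped fully, and the log2 fold change of −0.0082 had a 95% interval from −0.31 to 0.30 (edgeR adjusted p = 0.995). Its neighbour Sh2d1b2, which encodes a second EAT-2-like adaptor, shares 13.4% of its 50-base stretches and had only 1.62 times background (7.29 CPM in Fli1 KO and 4.97 CPM in NTC). The within-library ratio of Sh2d1a to Sh2d1b1 counts, which no scaling alters, was 1.31, 1.18 and 1.06 in Fli1 KO and 0.964 and 0.849 in NTC.

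Of the nectin-binding receptors, the activating receptor gene Cd226 (ENSMUSG00000034028, chromosome 18, 89176967 to 89272229, plus strand) had the smallest p of the 10 genes. It had 42.8, 39.4 and 35.1 CPM in Fli1 KO and 46.6 and 82.1 CPM in NTC. All Fli1 KO libraries lay below both NTC libraries. The NTC libraries differed 1.76-fold from each other, beyond their counting error (95% Poisson intervals 41.2 to 52.6 and 74.2 to 90.6 CPM). The intervals of Fli1 KO 1 (37.2 to 48.9 CPM) and Fli1 KO 2 (34.4 to 45.0 CPM) overlapped that of NTC 1. Fli1 KO averaged 39.1 ± 3.87 CPM (SD, n = 3) and NTC 64.4 ± 25.1 CPM (SD, n = 2). The difference in edgeR was −0.71 on the log2 scale (SE 0.19, 95% interval −1.12 to −0.31, adjusted p = 0.155). Leaving out NTC 2 brought it to −0.25 (edgeR adjusted p = 0.830) and leaving out NTC 1 to −1.05 (4.1e-07). Over all alternatives the adjusted p ran from 4.1e-07 to 0.830. With library size alone as the scaling Cd226 was called (−0.83, adjusted p = 0.0182), as it was without a filter on low counts (−0.70, adjusted p = 0.0208).

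Tigit, the gene of the inhibitory PVR receptor (ENSMUSG00000071552, chromosome 16, 43648867 to 43664146, minus strand), had 71.0, 69.7 and 72.3 CPM in Fli1 KO and 57.0 and 47.2 CPM in NTC. The Fli1 KO libraries were nearly equal and all lay above both NTC libraries. Fli1 KO averaged 71.0 ± 1.30 CPM (SD, n = 3) and NTC 52.1 ± 6.95 CPM (SD, n = 2). The difference in edgeR was 0.44 on the log2 scale (SE 0.14, 95% interval 0.16 to 0.73, adjusted p = 0.242). The value was 0.32 without NTC 2.

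Cd96, the gene of a further PVR receptor of NK and T cells (ENSMUSG00000022657, chromosome 16, 46035657 to 46120251, minus strand), had 105, 111 and 94.1 CPM in Fli1 KO and 119 and 107 CPM in NTC. The groups overlapped (log2 fold change −0.13, 95% interval −0.41 to 0.15, edgeR adjusted p = 0.842), and as a fold the interval runs from 0.754 to 1.11. With 1 library left out the log2 value ran from −0.19 to −0.033.

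Crtam, the gene of the CADM1 receptor of activated NK and CD8 T cells (ENSMUSG00000032021, chromosome 9, 40969691 to 41004628, minus strand), had 25.2, 32.3 and 28.4 CPM in Fli1 KO and 34.5 and 40.5 CPM in NTC, over a background of 8.02 and 8.12 CPM. All Fli1 KO libraries lay below both NTC libraries, although Fli1 KO 2 (95% Poisson interval 27.8 to 37.3 CPM) and NTC 1 (29.9 to 39.6 CPM) did not differ beyond counting error. The log2 fold change was −0.38 (SE 0.16, 95% interval −0.71 to −0.059, edgeR adjusted p = 0.444).

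**Figure D3:**
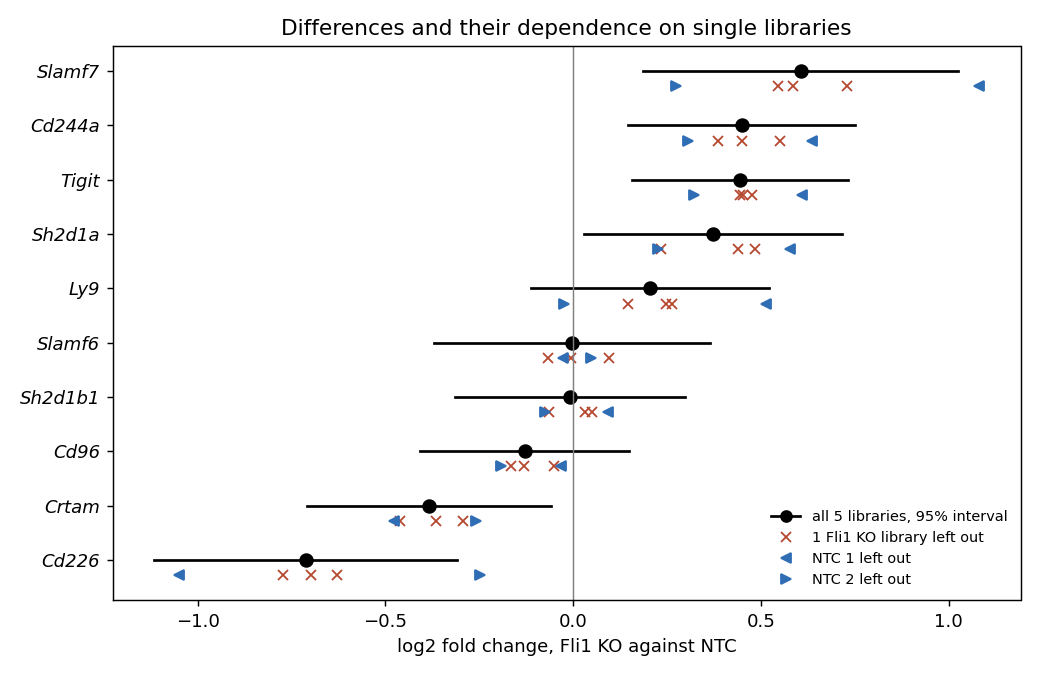
Log2 fold change of Fli1 KO against NTC for each gene (black circle) with its 95% interval from edgeR, and below it the value with each library left out (red crosses for Fli1 KO, blue triangles for NTC). Leaving out NTC 1 or NTC 2 moves Slamf7 from 1.08 to 0.27 and Cd226 from −1.05 to −0.25, and neither crosses 0.

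The values of NTC 2 weighed heavily on these differences. In 8 of the 10 genes NTC 2 lay further than NTC 1 from the Fli1 KO mean on the log scale. Without NTC 1, Cd244a (0.64, edgeR adjusted p = 0.0164), Slamf7 (1.08, 1.0e-06) and Tigit (0.61, 0.0407) were called higher and Cd226 lower. That fit takes its spread from the Fli1 KO libraries alone. Without NTC 2, 0 of the 10 were called. NTC 2 also stood apart in summed marker levels. Its NK sum was the lowest of the 5 libraries, and Gzma, Gzmb, Prf1 and Il2rb made up most of that sum (2089, 1061, 550 and 1291 CPM in NTC 2). Eomes (278 CPM), Klrd1 (161 CPM) and Nkg7 (106 CPM) were also lowest in NTC 2. Other NK markers were not: Klrk1 (394 CPM) and Tbx21 (107 CPM) were highest in NTC 2. Ncr1 in NTC 2 (278 CPM) lay just above the Fli1 KO libraries (231 to 276 CPM) and below NTC 1 (359 CPM). Klrb1c (254 CPM) and Klre1 (159 CPM) in NTC 2 lay within the range of the other libraries. The sum was highest in NTC 2 for T-cell markers, for B-cell markers (83.1 CPM against 67.4 to 74.7 CPM) and for erythroid and platelet markers (22.8 CPM against 6.25 to 10.5 CPM). The background was highest in NTC 2 as well (1.78 CPM per kb, against 1.39 in NTC 1 and 1.48 to 1.69 in Fli1 KO). Averaged over the libraries, the sum expected from background was 68.0 CPM for the B-cell markers, so their sums lay near background. Single T-cell markers went both ways. Cd28 (109 CPM), Bcl11b (31.8 CPM) and Cd8b1 (2.72 CPM) were highest in NTC 2, and Cd3g (9.61 CPM) and Cd6 (10.9 CPM) were lowest there. The dendritic sum was lowest in NTC 2 (254 CPM against 332 to 367 CPM), and most of it was Itgax (210 CPM against 297 to 321 CPM). The other dendritic markers lay at 0.904 (Flt3) to 1.1 (Clec9a) times background. The part of these in the results was not tested. In bulk RNA, fewer cells of a type and less RNA per cell cannot be told apart.

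The balance between receptors that share ligands was read from ratios within each library. For each count of Tigit there were 0.602, 0.565 and 0.485 counts of Cd226 in Fli1 KO and 0.818 and 1.74 in NTC. The groups did not overlap, and the mean log2 ratio was −0.87 ± 0.16 (SD, n = 3) in Fli1 KO and 0.25 ± 0.77 (SD, n = 2) in NTC. Their difference of −1.12 was −0.58 without NTC 2 and −1.66 without NTC 1. The ratio of Tigit to Cd96, 2 genes of chromosome 16, was 0.677, 0.626 and 0.769 in Fli1 KO and 0.480 and 0.440 in NTC, again without overlap, and here the NTC libraries lay close together. The difference in mean log2 ratio was 0.58, and 0.50 to 0.65 with any 1 library left out. The ratio of Cd226 to Cd96 overlapped (0.354 to 0.408 in Fli1 KO, 0.392 and 0.765 in NTC). Of 5 ratios compared, those of Cd226 to Tigit, Tigit to Cd96 and Sh2d1a to Sh2d1b1 did not overlap between the groups (exact permutation test, two-sided, p = 0.2 each, adjusted p = 0.333), and that of Slamf6 to Cd244a overlapped (p = 0.4). With 3 against 2 libraries 0.2 is the smallest p this test can give.

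**Figure D4:**
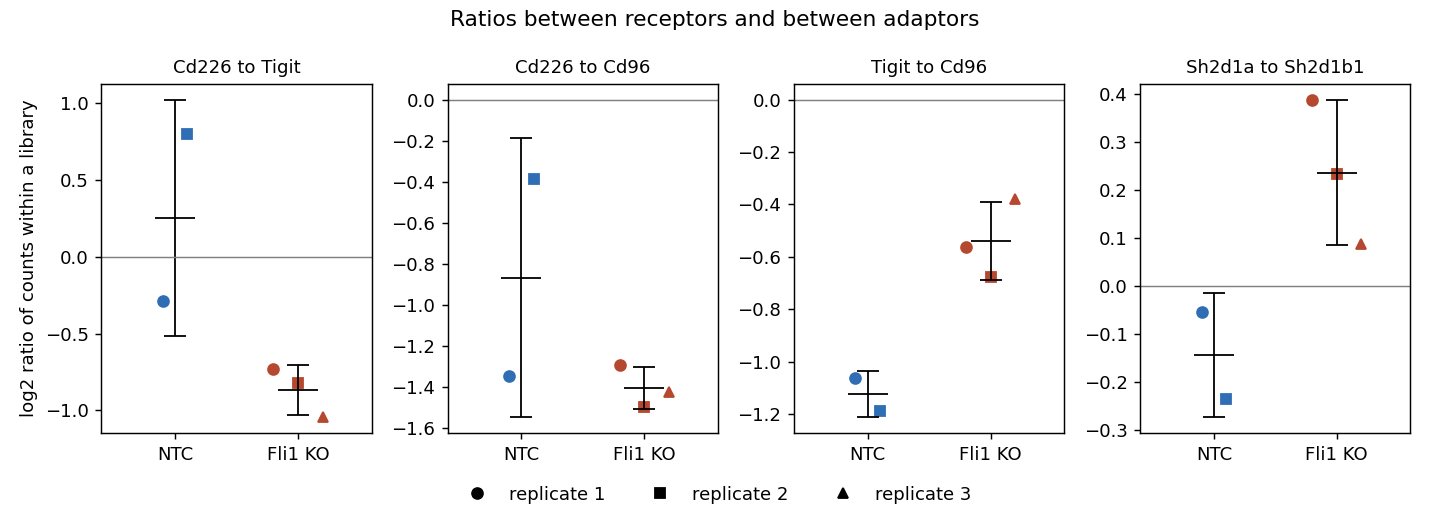
Log2 ratio of the counts of 2 genes within each library, for 2 NTC (blue) and 3 Fli1 KO libraries (red), with the mean and SD of each group in black. The Fli1 KO libraries lie below both NTC libraries for Cd226 to Tigit and above both for Tigit to Cd96 and Sh2d1a to Sh2d1b1, and they overlap NTC 1 for Cd226 to Cd96.

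The ligands and relatives of these receptors were taken from fixed lists. Of 6 further SLAM genes edgeR called 0 (1 at an unadjusted p under 0.05, median log2 fold change −0.01). That median was 0.29 over the 4 genes left by a filter of 5 CPM in 2 libraries, 0.19 over the 2 among genes over 3 times background, and 0.25 without NTC 1. Those 2 were Cd48 and Cd84. Cd48, the gene of the CD244 ligand, had the smallest p (57.9 CPM in Fli1 KO, 42.8 CPM in NTC, log2 fold change 0.43, edgeR adjusted p = 0.361), and Cd84, the gene of a self-binding SLAM receptor, had 107 and 93.7 CPM. Cd244a, Slamf7, Ly9, Slamf6, Cd48, Cd84 and Slamf1 lie within 394 kb of chromosome 1, which holds 17 listed genes. Of these 11 were tested and 0 called, with 7 positive and 4 negative log2 fold changes and a median of 0.20. The tested genes include the members Cd244a, Slamf7, Ly9 and Slamf6. The locus median was 0.069 with library size alone as the scaling, 0.096 without NTC 2 and 0.26 without NTC 1. Beside it, the median was −0.02 for all genes tested and 0.11 for those over 3 times background.

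Genes of nectin-type ligands gave little signal in these NK cells. Of 7 ligands and relatives 0 were called (0 at an unadjusted p under 0.05, median −0.11, but 0.018 without NTC 1 and 0.038 without NTC 2), and only Pvrig, the gene of a nectin-binding inhibitory receptor, lay over 3 times background (30.9 CPM in Fli1 KO, 28.3 CPM in NTC). Pvr lay at 1.87 times, Cadm1 at 1.14 times and Nectin2, a second CD226 ligand, at 0.984 times background. Nectin4 had the smallest p of the list, at 1.02 times background (log2 fold change −0.46, edgeR adjusted p = 0.717).

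Of 22 genes that act downstream of these receptors, 21 lay over 3 times background and edgeR called 0 (3 at an unadjusted p under 0.05). The median log2 fold change was 0.10, with 17 positive and 5 negative, beside a median of 0.11 for all genes over 3 times background. The median of the 22 genes was −0.029 with library size alone as the scaling. It was −0.014 when only genes over 3 times background were fitted. Prkch, the gene of protein kinase C eta, had the smallest p (306 CPM in Fli1 KO, 239 CPM in NTC, log2 fold change 0.35, edgeR adjusted p = 0.373). Fyn, the gene of the kinase that SAP recruits, had 337 CPM in Fli1 KO and 305 CPM in NTC, and its groups overlapped (log2 fold change 0.14, adjusted p = 0.818).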

How the data were processed

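RNA of NK cells was measured in 5 libraries (3 Fli1 KO, 2 NTC) grouped by their labels. Per the labels' protocols, 10 ng of RNA went into each library, made with an Illumina kit that enriches by probes. The submitters' processing notes name FastQC 0.12.0, Trimmomatic 0.39 and STAR 2.7.11, with mm10 as the build. The sources used here do not name the counting program, its annotation or strand setting, or its treatment of reads with several positions. The authors deposited 1 table of raw counts, whole numbers per Ensembl gene ID, without a line for unassigned reads. It has 0 columns beyond these libraries.

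Symbols, positions and exon lengths came from GENCODE M21 on GRCm38, which held 52073 of 56691 IDs (91.9%). Genes passed edgeR's filterByExpr (minimum 10 counts), which left 30580. Counts were scaled with TMM and tested by quasi-likelihood with robust dispersions (edgeR 4.0.16, R 4.3.3), with p-values Benjamini-Hochberg adjusted over all genes and called under 0.05. SEs come from the coefficient and its F statistic, and 95% intervals from the SE and the fit's degrees of freedom. The common biological coefficient of variation was 0.120. Background used 5422 kb of exon of receptor genes. Ratios were compared by exact permutation. The fit was also run on simulated data, but the outcome is not reported here and is not used as support. The deviations of replicates 1 and 2 from their group means correlated only weakly between the groups (r = 0.069 and 0.14 across genes). Fli1 KO 3, which has no NTC partner, gave r = 0.077 with NTC 1. With 2 NTC libraries each r recurs with the opposite sign for the other, so these values cannot decide on pairing. No label says that numbers mark a shared animal, so no block was used.

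Named genes were all 10 members and, per wider list, the called genes or the one with the smallest p, with ligands and neighbours of members as examples. Fyn, the cell type markers named were chosen after their values were seen. The members, lists and tests were chosen with earlier results of these data known. Alternatives were other scalings (median-of-ratios, upper-quartile, library size), other filters, each library left out, a replicate block, DESeq2 1.42.0 and limma-voom (limma 3.58.1).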

Additional observations from a re-analysis of the deposited data

How the results depend on the processing

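No member was called with median-of-ratios or upper-quartile factors, with a filter of 5 CPM in 2 libraries, among genes over 3 times background (where Slamf6 was not fitted), by DESeq2 or by limma-voom. Library size alone and no filter each called 1 member lower, which was Cd226. With the replicate block 4 were called higher (Cd244a, Slamf7, Sh2d1a and Tigit) and 1 lower (Cd226), but that fit rests on the 2 numbers both groups share, and the samples share only a number. Calls made without an NTC library take the spread of the Fli1 KO libraries for the lone NTC library. With 1 library left out, 0 to 3 were called higher and 0 to 1 lower. Of 139 fitted values of members, 115 kept direction and side of the threshold, 11 passed it and 13 changed sign, all in Ly9, Slamf6 and Sh2d1b1. Leaving out a library gave −0.025 to 0.51 for Ly9, −0.068 to 0.097 for Slamf6 and −0.076 to 0.094 for Sh2d1b1. Median-of-ratios factors gave 0.016 for Slamf6 and 0.011 for Sh2d1b1, no filter 0.0098 and 0.0064, DESeq2 0.014 and 0.012, and the replicate block 0.019 for Sh2d1b1. The cause was not tested. Over all genes, 140 were called higher and 27 lower. These numbers were 92 and 71 with library size alone, 239 and 56 with no filter, 139 and 59 among genes over 3 times background and 728 and 193 with the replicate block. They ran from 46 to 703 and from 3 to 174 with 1 library left out. Slamf6, Pvr, Cadm1 and the nectin genes lie under 3 times background.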
